A study of Oryctolagus cuniculus with 8 samples.

Results

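The LIM homeobox genes were compared between stem cells cultured from a knee fat depot and stem cells cultured from fat under the skin. Members were taken by symbol from the deposited gene table, as LHX followed by digits, ISL1, ISL2, LMX1A or LMX1B, and 9 of the 20586 genes of the table met this rule. They were LHX1, LHX2, LHX4, LHX5, LHX8, LHX9, ISL1, ISL2 and LMX1A. LHX3, LHX6 and LMX1B were not analysed here.

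The cells were infrapatellar fat pad-derived stem cells (IPFSCs, from the fat pad behind the patellar ligament) and subcutaneous adipose stem cells (ScASCs, from inguinal fat), at passage 1, with 4 RNA-seq libraries of each. Both came from 4 male New Zealand white rabbits aged 4 months and were described as matched by donor. They had been expanded in growth medium, with no induction of cartilage, fat or bone, no transgene and no drug, so the site of origin was the difference named in the labels. Libraries were made from cells that had adhered and divided in culture and not from the tissue itself.

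LIM homeodomain proteins are transcription factors that carry a pair of zinc-binding LIM domains in front of a DNA-binding homeodomain. The LIM domains recruit LDB adaptor proteins, which are held stable by SSBP proteins and are marked for breakdown by the ubiquitin ligase RLIM, while LIM-only (LMO) proteins compete for the same adaptor. In mouse embryos the family patterns the nervous system, the limb bud, the gonad and the jaw.

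Levels are given as RPKM, reads of a gene scaled to its transcript length and to the mapped reads of the library, which the authors computed and deposited on a log2 scale. Differences were tested with limma on log2(RPKM + 1) over all 8 libraries and are written as IPFSCs over ScASCs. To be tested, a gene had to average an RPKM above 1 in ScASCs, in IPFSCs or in both, which 11294 genes did, and a gene was called at a Benjamini-Hochberg adjusted p under 0.05 over these genes. Adding 1 before the log understates the change of a gene of low expression. The p-values measure the spread among these libraries, and in bulk RNA a lower level from fewer expressing cells and a lower level from less RNA per cell cannot be told apart.

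LHX8 and LHX2 were higher in ScASCs, LHX9 was higher in IPFSCs, and the other 6 members had a mean RPKM below 1 in both cell types. Of the 9 members, 3 passed the filter and were tested, and all of these 3 were called, 1 higher and 2 lower in IPFSCs. Over all tested genes 4.98% were called, 2.67% as higher and 2.31% as lower in IPFSCs. LHX8 and LHX9 passed the filter only through the cell type in which they were high and so had to differ, which leaves the count over the tested members without weight. LHX2 was the member with a mean RPKM above 1 in both cell types. Its IPFSC mean of 1.18 exceeded 1 only through replicate 3 (2.22), as the other IPFSC libraries lay between 0.811 and 0.848. The libraries of the cell types did not overlap for LHX8, LHX2 and LHX9, as was the case for 11.8% of all tested genes.

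LHX8 (ENSOCUG00000003641), a regulator of tooth and palate mesenchyme, basal forebrain cholinergic neurons and oocytes in mouse, was the most abundant member in ScASCs by mean RPKM. Its RPKM in ScASC replicates 1 to 4 was 4.73, 12.6, 22.5 and 20.8. In IPFSC replicates 1 to 4 it was 0.324, 0.225, 0.245 and 0.512. The lowest ScASC library thus lay well above the highest IPFSC library, and ScASC replicate 1 was low among its own group. The means were 15.1 ± 8.17 in ScASCs and 0.327 ± 0.131 in IPFSCs (SD, n = 4), and the log2 fold change was −3.42 with a standard error of 0.40 (limma, adjusted p = 0.00293). The adjusted p ranged from 1.76e-04 to 0.0138 over 14 alternative fits.

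The size of the LHX8 difference varied among library pairs of the same number, from −2.11 for number 1 to −4.24 for number 3 on the log2(RPKM + 1) scale, with −3.47 and −3.85 for numbers 2 and 4. Without ScASC replicate 1 the fold change was −3.85. That library also stood apart in other genes, picked here after their values had been seen. DCN, the collagen-binding proteoglycan decorin, had RPKM of 87.1, 388, 874 and 800 in ScASC replicates 1 to 4. ACTA2, smooth muscle actin, ran the other way, with 2269, 1025, 98.2 and 279. ScASC replicate 1 was thus lowest in LHX8 and DCN and highest in ACTA2 among the ScASC libraries, and the part of such differences between cultures in the LHX8 level was not tested.

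**Figure D1:**
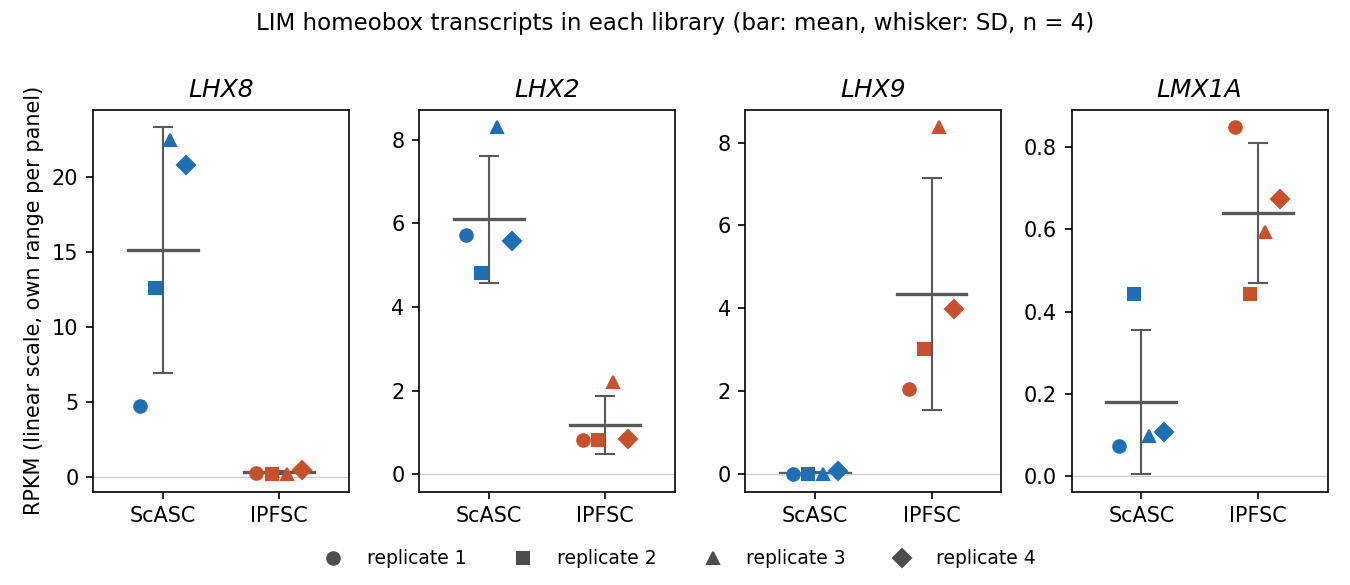
RPKM (linear scale, its own range in each panel) of LHX8, LHX2, LHX9 and LMX1A in the 4 ScASC and 4 IPFSC libraries, with marker shapes for replicate numbers, a bar for the mean and a whisker for the SD. LHX8 and LHX2 separate with ScASCs on top, LHX9 separates with IPFSCs on top, and for LMX1A ScASC replicate 2 (0.444) lies level with IPFSC replicate 2 (0.442).

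LHX2 (ENSOCUG00000007757), known in mouse from the eye, the forebrain, hair follicle stem cells and the limb bud, was present in both cell types. Its RPKM was 5.71, 4.82, 8.30 and 5.57 in ScASC replicates 1 to 4 and 0.834, 0.811, 2.22 and 0.848 in IPFSC replicates 1 to 4. No IPFSC library reached the lowest ScASC library, and replicate 3 was the highest of its group in both cell types. The means were 6.10 ± 1.52 and 1.18 ± 0.693 (SD, n = 4). From ScASCs to IPFSCs, LHX2 fell by 1.73 on the log2 scale with a standard error of 0.23 (limma, adjusted p = 0.00432). The differences of the 4 same-numbered pairs were close to each other, at −1.87, −1.68, −1.53 and −1.83. With the replicate number as a block the standard error was 0.11 and the adjusted p was 0.00137, and over 14 alternatives the adjusted p ran from 0.00137 to 0.0179.

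LHX9 (ENSOCUG00000017623) is the closest relative of LHX2 in the family and is needed in mouse for the formation of the gonad. It was listed at 0 in ScASC replicates 1, 2 and 3 and at an RPKM of 0.0574 in ScASC replicate 4. In IPFSC replicates 1 to 4 its RPKM was 2.04, 3.01, 8.37 and 3.98. LHX9 was thus present in every IPFSC library and at or next to 0 in every ScASC library, with IPFSC replicate 3 the highest, as it was for LHX2. Mean RPKM was 0.0143 ± 0.0287 in ScASCs and 4.35 ± 2.80 in IPFSCs (SD, n = 4). The log2 fold change was 2.27 with a standard error of 0.31 (limma, adjusted p = 0.00493, and 9.86e-04 to 0.0194 over 14 alternatives).

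The reads behind these values were read back from the steps that whole reads leave in RPKM, as the least whole number of reads in each library that fits all 8 values of a gene within 0.05 reads. The true numbers may be whole multiples of these, or count read pairs, so the numbers and the width of their intervals hold only if the least numbers are the true ones. For LHX9 the least numbers were 1 read over the ScASC libraries and 308 over the IPFSC libraries. Scaled for depth, this was a ratio of 314 with a 95% interval of 56.0 to 12452, the width of which comes from the single ScASC read. For LHX8 they were 1702 reads in ScASCs and 36 in IPFSCs, 46.3 times as many per depth in ScASCs (33.3 to 66.4). For LHX2 they were 1349 and 255 reads, 5.19 times as many in ScASCs (4.53 to 5.95). The intervals are exact binomial intervals of the split of reads between the cell types, turned into ratios. They cover counting error only and do not hold the spread between libraries. For LHX8 in IPFSCs the least numbers per library were 9, 6, 7 and 14, so it was detected in every IPFSC library at a low level.

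On log2(RPKM + 0.1), which compresses low values less, the fold changes were 5.12 for LHX9, −4.98 for LHX8 and −2.38 for LHX2, with the calls kept. The order by size of change therefore depended on the constant added, with LHX8 above LHX9 at 1 and below it at 0.1. LHX2 had the smallest change of the 3 at both constants.

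LMX1A (ENSOCUG00000005509), which acts in mouse in the roof plate of the neural tube and in midbrain dopaminergic neurons, stayed below the filter. Its RPKM was 0.0732, 0.444, 0.0982 and 0.107 in ScASC replicates 1 to 4 and 0.848, 0.442, 0.593 and 0.674 in IPFSC replicates 1 to 4. The groups overlapped through ScASC replicate 2, which lay well above the other ScASC libraries. The means were 0.181 ± 0.176 in ScASCs and 0.639 ± 0.169 in IPFSCs (SD, n = 4), from at least 26 and 96 reads, a ratio per depth of 3.77 (2.42 to 6.06, counting error only). In a limma fit with no filter on low RPKM, which called 3.44% of 16101 genes, the log2 fold change of LMX1A was 0.48 with a standard error of 0.11 (adjusted p = 0.0670), and it was not called. It was called without ScASC replicate 2 (adjusted p = 0.0243), in a fit added after the data had been seen, and the adjusted p ranged from 0.0243 to 0.163 over 10 alternatives.

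Of the remaining 5 members, 3 were above 0 in 1 library each and 2 were listed at 0 in all 8 libraries. ISL1, a gene of the hindlimb field, the heart and motor neurons in mouse, had an RPKM of 0.105 in ScASC replicate 2. ISL2, its relative in motor neurons, had 0.0634 in ScASC replicate 1, and LHX4, a gene of the pituitary and of motor neurons, had 0.0756 in IPFSC replicate 2. These 3 genes gave no call in the fit with no filter, with adjusted p of 0.775, 0.824 and 0.804 in limma. LHX1, a gene of the early head and kidney, and LHX5, a gene of the forebrain, were the members listed at 0 throughout. At this depth the 5 genes were not detectable beyond single libraries, and the depth of each library in reads is unknown.

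RPKM is a scale per length on which genes can be set side by side. Among LHX8, LHX2, LMX1A and LHX9, the order by mean RPKM in ScASCs was LHX8, LHX2, LMX1A and LHX9. ISL1 (0.0262) and ISL2 (0.0159), each above 0 in 1 ScASC library, had ScASC means above that of LHX9 (0.0143). The ranges of LHX8 (4.73 to 22.5) and LHX2 (4.82 to 8.30) overlapped in ScASCs, so their order did not hold beyond the spread, while both lay far above LMX1A and LHX9. In IPFSCs the order was LHX9, LHX2, LMX1A and LHX8. The neighbours in that order overlapped each time, as LHX9 (2.04 to 8.37) met LHX2 (0.811 to 2.22), LHX2 met LMX1A (0.442 to 0.848), and LMX1A met LHX8 (0.225 to 0.512). LHX9 and LHX8, the highest and the lowest of the 4 by mean, did not overlap in IPFSCs.

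LHX2 and LHX9 are paralogs that stand in for each other in the outgrowth of the mouse limb bud, so their transcripts were also summed within each library. The sum was 5.71, 4.82, 8.30 and 5.63 RPKM in ScASC replicates 1 to 4 and 2.87, 3.82, 10.6 and 4.82 in IPFSC replicates 1 to 4. Unlike either gene alone, the sums overlapped between the cell types, with means of 6.11 ± 1.51 and 5.53 ± 3.47 (SD, n = 4). LHX9 made up 71.0%, 78.8%, 79.1% and 82.4% of the sum in the IPFSC libraries. In ScASCs it made up 1.02% in replicate 4 and none of it in the others. The paralog in the majority thus differed between the cell types, while 2 IPFSC sums lay below, 1 within and 1 above the span of the ScASC sums; this is a description, and the sum was not tested.

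**Figure D2:**
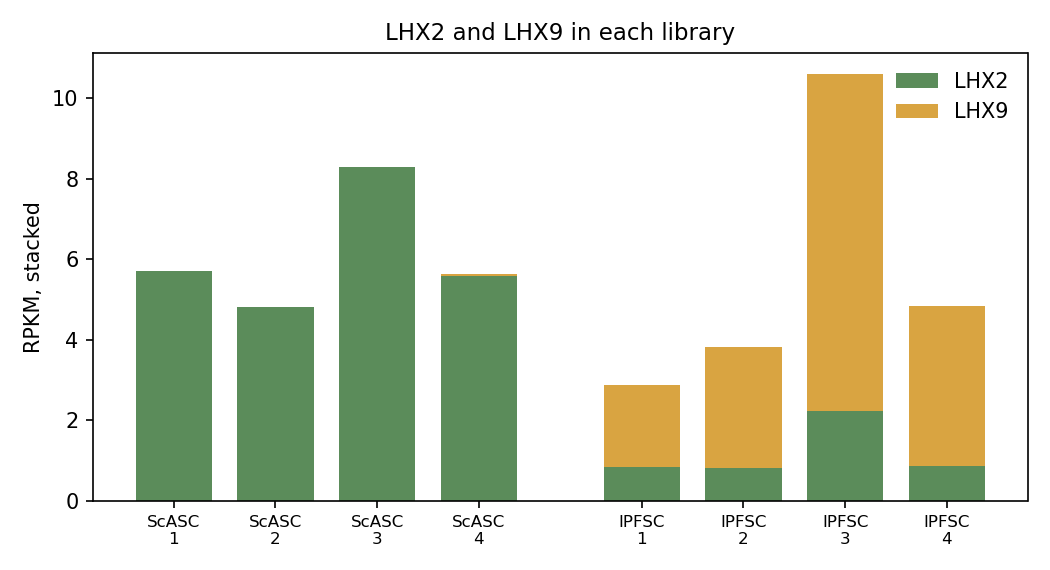
Stacked RPKM of LHX2 (green) and LHX9 (yellow) in each of the 8 libraries, bars starting at 0. The ScASC bars (4.82 to 8.30 in sum) are almost all LHX2, and the IPFSC bars (2.87 to 10.6 in sum) are 71.0% to 82.4% LHX9.

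Transcripts of LDB1, SSBP3 and RLIM, which code for or regulate the adaptor complex of LIM homeodomain proteins, were present in both cell types. Of 6 genes listed for this complex, 4 were in the table and 3 were tested, of which 1 fell and 2 were not called, with a median log2 fold change of −0.17 against −0.0035 over all tested genes. Over all tested genes 2.31% were called as lower in IPFSCs. SSBP3, a single-stranded DNA-binding protein that stabilises LDB proteins, had RPKM of 16.6, 16.9, 17.4 and 15.6 in ScASCs and 10.9, 11.6, 12.4 and 11.6 in IPFSCs. The groups did not overlap, and SSBP3 fell by 0.48 on the log2 scale (adjusted p = 0.00995 in limma, 0.00994 to 0.0400 over 14 alternatives). LDB1, the widely expressed adaptor, had RPKM of 32.5 ± 3.38 in ScASCs and 28.9 ± 3.37 in IPFSCs (SD, n = 4; log2 fold change −0.17, adjusted p = 0.558 in limma). RLIM had 39.1 ± 2.71 and 40.6 ± 4.29 (log2 fold change 0.05, adjusted p = 0.907). LDB2, the second adaptor, did not exceed an RPKM of 0.0423 in any library. SSBP2 and SSBP4 were not analysed here.

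Among the LIM-only genes, 4 of 4 were in the table and 2 were tested, of which 1 rose, with a median log2 fold change of 0.20. The share called as higher in IPFSCs over all tested genes was 2.67%. LMO4, the broadly expressed member, had RPKM of 145, 133, 150 and 139 in ScASCs and 211, 161, 238 and 233 in IPFSCs. Every IPFSC library lay above every ScASC library, with IPFSC replicate 2 the nearest to them. LMO4 rose by 0.55 on the log2 scale (limma, adjusted p = 0.0438), and the call was lost in 10 of 14 alternatives, with adjusted p from 0.00821 to 0.129. LMO1 had RPKM of 4.56 ± 1.94 in ScASCs and 3.76 ± 0.207 in IPFSCs (SD, n = 4; log2 fold change −0.15, adjusted p = 0.886 in limma). LMO2, known from blood and endothelial cells, was below the filter at 0.603 ± 0.539 and 0.991 ± 0.443, and LMO3 was listed at 0 in all ScASC libraries and reached 0.183 in IPFSC replicate 3.

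In the mouse and chick limb bud, LHX2, LHX9 and LMX1B link the signals of the outer layer (FGFs, WNT7A and its repressor EN1) to the mesenchyme (SHH, GREM1 and BMPs). Of 18 genes listed from this circuit, 14 were in the table and 8 were tested, of which 2 rose, 1 fell and 5 were not called, with a median log2 fold change of 0.75. The genes that rose were BMP4 and its antagonist GREM1, against 2.67% of all tested genes. Both passed the filter only through IPFSCs, where they are high, and so had to differ, which leaves the count of rises without weight. The median of 0.75 includes both and so carries no weight as a shift of the list. GREM1, a secreted BMP antagonist, had RPKM of 0.107, 0.259, 0 and 0.117 in ScASCs and 5.17, 5.38, 16.9 and 5.37 in IPFSCs. IPFSC replicate 3 held the peak for GREM1 as it did for LHX9 and LHX2. On the log2 scale GREM1 rose by 2.87 (limma, adjusted p = 0.00278). BMP4, one of the ligands that gremlin binds, was at 0.440 ± 0.325 in ScASCs and 6.72 ± 2.53 in IPFSCs (SD, n = 4) and rose by 2.38 on the log2 scale (adjusted p = 0.00278).

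EN1, the homeobox gene of the ventral limb ectoderm, which in mouse also marks a lineage of dermal fibroblasts, gave the call in the other direction. Its RPKM was 12.7, 17.4, 13.6 and 12.0 in ScASCs and 3.04, 4.91, 0.866 and 1.37 in IPFSCs, with no overlap. EN1 fell by 2.21 on the log2 scale (adjusted p = 0.00770 in limma). FGF10, the ligand from mesenchyme to the apical ridge, and TBX5, the forelimb T-box factor, were not called. Their log2 fold changes were 1.21 for FGF10 (adjusted p = 0.282) and 0.89 for TBX5 (adjusted p = 0.0879). With the replicate number as a block both were called (adjusted p = 0.0248 and 0.0293 in limma), which brought the calls of this list to 5. That fit called 909 of all 11294 tested genes.

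TBX4, the hindlimb T-box factor, was below the filter, at no more than 0.0601 in ScASCs and between 0.260 and 0.628 in IPFSCs. It had an adjusted p of 0.0156 in the limma fit with no filter, and the call was lost without ScASC replicate 2 (adjusted p = 0.0568). The ectodermal signals WNT7A and FGF4 were listed at 0 in all 8 libraries, and SHH was above 0 in 1 library, at 0.0478. JAG1, MSX2 and GLI3 were tested and not called. FGF8, PITX1, HAND2 and MSX1 were not analysed here.

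LHX8 has been used in mouse as a marker of brown fat, so brown and beige fat genes were set beside it. Of 15 listed, 11 were in the table and 5 were tested, of which 2 fell and 3 were not called, with a median log2 fold change of −0.50. The share called as lower in IPFSCs over all tested genes was 2.31%. TMEM26, a membrane protein used as a beige marker in mouse, had RPKM of 4.21, 6.46, 10.8 and 10.8 in ScASCs and 1.70, 0.862, 2.70 and 2.72 in IPFSCs, without overlap. Its log2 fold change was −1.57 (adjusted p = 0.0275 in limma), and the call was lost in 6 of 14 alternatives (0.00590 to 0.0793). TBX1, a T-box factor also used as a beige marker, had 3.82, 0.472, 5.43 and 2.28 in ScASCs and no more than 0.0564 in IPFSCs. TBX1 passed the filter only through ScASCs, where it is high, and so had to differ. The count of falls and the median of this list include TBX1, which leaves both without weight. The log2 fold change of TBX1 was −1.77 (limma, adjusted p = 0.0418), and the call was lost in 8 of 14 alternatives (0.00466 to 0.108). UCP1, the uncoupling protein that defines thermogenic fat cells, was next to 0, with means of 0.0101 in ScASCs and 0.00925 in IPFSCs, and KCNK3 was listed at 0 throughout. EBF2, a regulator of brown preadipocytes in mouse, differed by 0.22 on the log2 scale (adjusted p = 0.854). UCP1 was thus next to 0 both in ScASCs, where LHX8 was high, and in IPFSCs, where it was low. The cells had not been induced to form fat, so these values cannot decide whether LHX8 marks brown fat here.

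**Figure D3:**
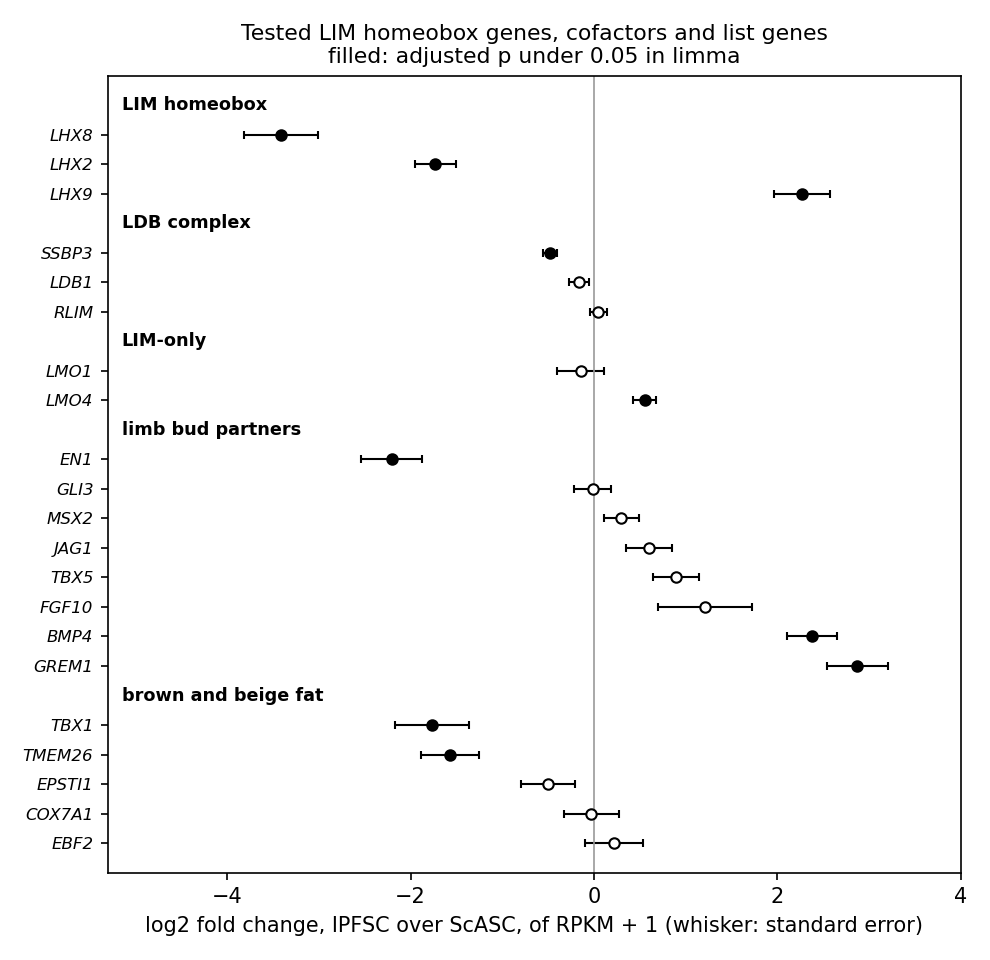
Log2 fold change of RPKM + 1 (IPFSCs over ScASCs) of the tested LIM homeobox genes, the LDB complex, the LIM-only genes, the limb bud genes and the brown and beige fat genes, with the standard error from limma as whisker and filled points for an adjusted p under 0.05. LHX8 (−3.42) and LHX9 (2.27) lie on opposite sides of 0, and LDB1, RLIM, GLI3 and COX7A1 lie next to 0.

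LIM domains also occur without a homeodomain, in proteins of the actin cytoskeleton and focal adhesions, and these genes gave a comparison within the same domain class. Of 39 listed, 28 were in the table and 21 were tested, of which 3 rose, 1 fell and 17 were not called, with a median log2 fold change of −0.12. Among all tested genes 2.67% were called as higher and 2.31% as lower in IPFSCs, and the counts were not tested against these shares. In limma 12 of the 21 tested genes, the called ones among them, had an unadjusted p under 0.05. The share of all tested genes below that value is not given here. PXN, the focal adhesion scaffold paxillin, averaged 37.1 ± 2.67 RPKM over the ScASC and 22.6 ± 0.858 over the IPFSC libraries (SD, n = 4) and fell by 0.69 on the log2 scale (adjusted p = 0.00249 in limma). FHL1, a LIM protein abundant in striated muscle, rose from 6.99 ± 4.38 to 32.7 ± 8.79 (log2 fold change 2.22, adjusted p = 0.0178). LPP and LIMA1, both actin-associated, rose by 0.55 (adjusted p = 0.0191) and by 0.62 (adjusted p = 0.0481) on the log2 scale. The calls of FHL1, LPP and LIMA1 were lost in 2, 3 and 9 of 14 alternatives. The difference between these genes and the LIM homeobox genes was not tested.

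For each tested member, the 5 genes with the highest Pearson's r of log2(RPKM + 1) over the 8 libraries were listed as a description, without a p, since the libraries fall into the cell types and share depth. For LHX9 they were GREM1 (0.988), the nucleotide exchange factor PLEKHG5 (0.986), the water channel AQP1 (0.982), the lipoxygenase ALOX15 (0.981) and the homeobox gene PITX3 (0.980). Once the group means were taken out, the r of GREM1 was 0.90 and that of ALOX15 was 0.97. Both had their peak in IPFSC replicate 3, a library that the choice of these genes also used.

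For LHX8 the list held the adaptor SKAP2 (0.994), the bHLH repressor MSC (0.988), the mitochondrial enzyme HOGA1 (0.985), the somite factor DMRT2 (0.985) and the autophagy protein VMP1 (0.984). The r after removal of the group means was 0.98 for SKAP2 and 0.85 for VMP1. SKAP2 lay between 14.4 and 24.5 RPKM in ScASCs and between 5.12 and 5.59 in IPFSCs. DMRT2 averaged 10.9 ± 3.63 RPKM over the ScASC and 0.0646 ± 0.0456 over the IPFSC libraries (SD, n = 4). All 5 genes had ScASC replicate 1 as the lowest library of that group, as LHX8 did, and were chosen over these same libraries.

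For LHX2 the list held the basal keratin KRT15 (0.974), HOXC4 (0.973), the cofactor SSBP3 (0.971), HOXA4 (0.970) and HOXC9 (0.968). After removal of the group means the r lay between 0.70 for SSBP3 and 0.80 for HOXA4, below those of the genes listed for LHX8. HOXC4, a homeobox gene of axial position, averaged 20.6 ± 5.37 RPKM over the ScASC and 5.84 ± 0.637 over the IPFSC libraries (SD, n = 4).

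**Figure D4:**
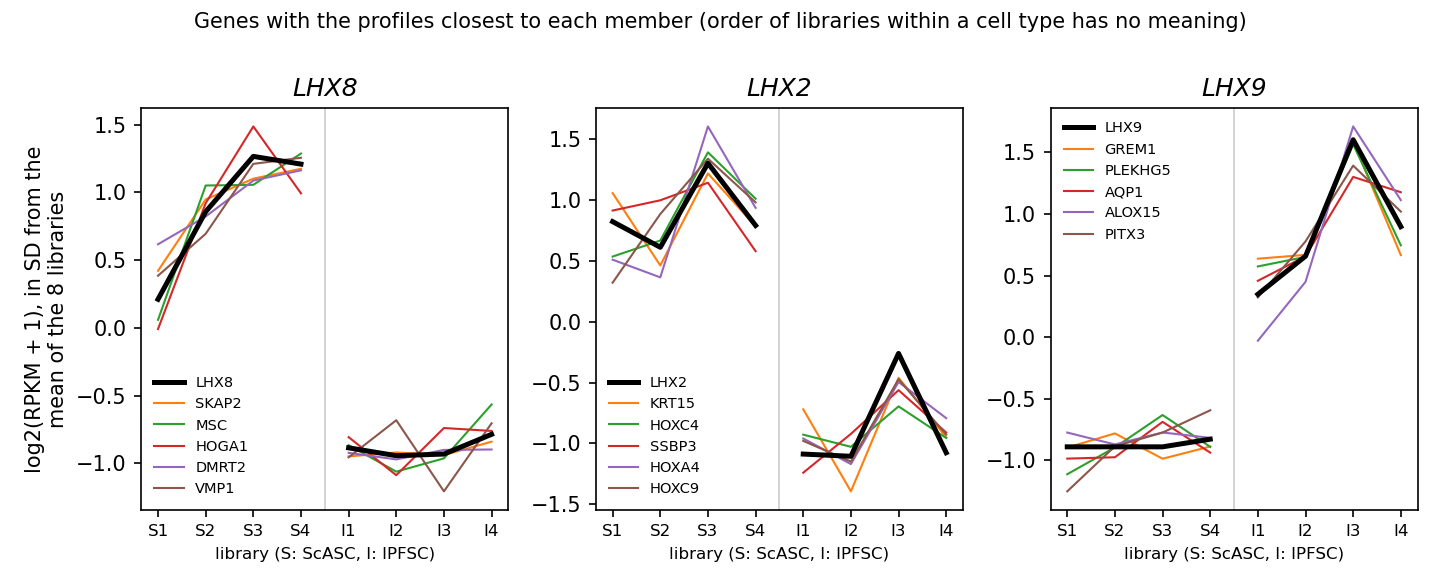
Profiles of LHX8, LHX2 and LHX9 (black) and of the 5 genes most like each over the 8 libraries, as log2(RPKM + 1) in SD from the mean of the libraries; the order of libraries within a cell type has no meaning. The genes listed for LHX8 share its low value in ScASC replicate 1, and those listed for LHX9 share its peak in IPFSC replicate 3.

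Genes next to the members on the chromosome were examined with the gene order of a RefSeq table of another rabbit assembly (mOryCun1.1), 3 on each side of LHX8, LHX9, LHX2 and LMX1A. Of 24 neighbours, 18 were in the table and 11 were tested. Beside LHX8, the log2 fold change of ACADM was 0.01 (limma, adjusted p = 0.997) and SLC44A5 did not exceed 0.0934 RPKM. Beside LHX9, DENND1B had 0.45 (adjusted p = 0.163), and beside LHX2 its relative DENND1A had 0.08 (adjusted p = 0.907). In that assembly a pseudogene overlaps LHX8 and a long non-coding RNA overlaps LHX2, with strand not considered. The libraries were made with a stranded kit, but the strand setting of the counting was not given in the sources used here, so reads of such overlapping genes may be included.

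The cultures were checked against markers of other cells. Of 7 stromal genes, 6 were tested and none was called in limma, 3 of them had an unadjusted p under 0.05, and the summed RPKM was 6190 to 8731 in ScASCs and 3961 to 5992 in IPFSCs. The share of all tested genes at an unadjusted p under 0.05 is not given here. With the replicate block 4 of these 6 were called, PDGFRB, COL1A1 and COL1A2 as lower in IPFSCs (adjusted p = 0.0301, 0.0328 and 0.0449) and LUM as higher (0.00902). That limma fit called 909 of all 11294 tested genes. The summed endothelial markers did not exceed 0.0538, PTPRC of leukocytes, SOX10 of glia, MYF5 of muscle and COL9A1 of cartilage were listed at 0 in every library, and epithelial markers summed to at most 0.619. Other sums were 11.5 to 22.2 in ScASCs against 13.1 to 26.9 in IPFSCs for leukocytes (carried by CD68), 0.860 to 21.8 against 2.80 to 7.20 for adipocytes, 0.514 to 1.04 against 0.768 to 3.28 for neural, 0.587 to 1.13 against 1.06 to 2.44 for muscle, 17.7 to 21.7 against 18.0 to 47.9 for cartilage and 108 to 2285 against 157 to 1413 for mural genes. Of 4 mural genes tested, MCAM and CSPG4 were higher in IPFSCs (log2 fold changes 2.26 and 1.76). Of 3 cartilage genes tested, ACAN was higher (2.19), while COL2A1 differed by −0.51 on the log2 scale (adjusted p = 0.0749, and 0.0154 with the replicate block). In the muscle list DES was below the filter, at no more than 0.0304 RPKM in ScASCs and 0.225 to 0.529 in IPFSCs, with an adjusted p of 0.0132 in the limma fit with no filter. S100B of the neural list had an RPKM of 0.514 to 0.995 in ScASCs and 0.768 to 3.28 in IPFSCs (limma, adjusted p = 0.138). CLIC5 of synovial lining was listed at 0 in ScASCs and at 0.237 to 0.436 in IPFSCs. LHX9 was higher in the same cell type as MCAM, CSPG4, ACAN, DES and CLIC5. The other listed mural, cartilage and muscle genes were not called as higher in IPFSCs. Of the other mural genes, ACTA2 and MYH11 differed by 0.16 and 0.10 on the log2 scale (limma, adjusted p = 0.983 and 0.926). RGS5, below the filter, had the higher mean in ScASCs (0.333 against 0.0540 RPKM), with overlap between the cell types. The part of any of these genes in the LHX9 level was not tested.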

How the data were processed

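RNA from 4 ScASC and 4 IPFSC cultures was sequenced as paired-end reads. The authors left the reads untrimmed, aligned them to OryCun2.0 with Subread, counted them with featureCounts on an Ensembl annotation and deposited 1 value per gene and library. These deposited values follow log2(RPKM + 1), as read from the values, with 0 written as 1e-05. Of 20595 entries, 9 repeated another and were dropped. In addition, 4 deposited columns of the authors' own edgeR comparison (log2 fold change, average log2 CPM, p-value and adjusted p-value) were not used.

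RPKM are not counts, so limma 3.58.1 (R 4.3.3) with a variance trend took the place of a count test, on log2(RPKM + 1) with the cell type as its term, and was tested on simulated data. Tables used Python 3.11.15 with pandas 2.3.3, numpy 2.4.6 and scipy 1.17.1. Relative depth, from the steps that single reads leave, was 0.825 to 1.00 in ScASCs and 0.883 to 0.946 in IPFSCs, and summed RPKM lay between 467330 and 492341. Absolute depth is unknown.

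Members and lists were chosen with earlier results of these data known. Named were every LIM homeobox, LDB complex and LIM-only gene, called limb bud and brown or beige fat genes, up to 3 called cytoskeletal LIM genes per direction, and the 5 closest profiles per tested member. FGF10, TBX5, TBX4, SHH, JAG1, MSX2, GLI3, EBF2, UCP1, KCNK3, WNT7A, FGF4, COX7A1, the neighbours, DCN and the marker genes were added to the text with their values in view. The values of some neighbours and markers are not reported here.

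Libraries of the same number were taken as pairs for the replicate block and for the differences of same-numbered libraries. The main fit did not use the pairs. The labels do not name the rabbit of a library, but deviations from group means correlated across genes between same-numbered libraries for all 4 pairs (r = 0.253 to 0.659), against −0.590 to 0.335 for other pairs. ScASC replicate 3 correlated more with IPFSC replicate 4 (r = 0.329) than with IPFSC replicate 3 (0.253), so the pair of number 3 is not settled. Deviations cancel within a group, so the lower values of other pairs are partly built in. Alternatives were the constant 0.1, no filter, a filter of 0.1, median-ratio scaling, no variance trend, a replicate block and each library left out.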

Additional observations from a re-analysis of the deposited data

Results flagged for a closer look

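Within-group outliers were sought with Dixon's ratio at its 95% critical value in 46 groups of 4 libraries, over the members, their cofactors and the list genes named by rule. Chance would flag about 1 in 20 groups, and 10 were found. Several are genes listed at 0 in the other 3 libraries of the group, where a few reads suffice.

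Among the members, IPFSC replicate 3 stood apart for LHX2, with an RPKM of 2.22 against 0.811 to 0.848 in the other IPFSC libraries. ScASC replicate 2 stood apart for LMX1A, with 0.444 against 0.0732 to 0.107. LHX9 was at 0.0574 in ScASC replicate 4 and at 0 in the other ScASC libraries. LHX4 was at 0.0756 in IPFSC replicate 2, ISL2 at 0.0634 in ScASC replicate 1 and ISL1 at 0.105 in ScASC replicate 2, each against 0 in the rest of its group.

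Among the partner genes, IPFSC replicate 3 also stood apart for GREM1, with 16.9 against 5.17 to 5.38, and for LMO2, with 1.65 against 0.720 to 0.812. RLIM was at 34.2 in IPFSC replicate 4 against 42.5 to 42.9 in the other IPFSC libraries. LDB2 was at 0.0205 in ScASC replicate 4 and at 0 in the other ScASC libraries.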

How the results depend on the processing

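The 3 called LIM homeobox genes were called, with the same sign, in every alternative run, including each library left out, where the log2 fold change ranged from −3.85 to −3.17 for LHX8, −1.93 to −1.59 for LHX2 and 1.95 to 2.50 for LHX9. The counts of other genes moved more. With the replicate block, 909 genes were called over all tested genes in place of 562, and 5 limb bud genes in place of 3; the block changed no call of a LIM homeobox gene. With a library left out, 315 to 562 genes were called in all, with 348 without ScASC replicate 2, 369 without IPFSC replicate 1 and 315 without IPFSC replicate 3. The cofactor and LIM-only genes gave 1 call in place of 2 with no filter, with median-ratio scaling and with no variance trend, and 1 to 2 with a library left out. The brown and beige fat genes gave 1 call in place of 2 with no filter and 0 to 1 with a library left out, with 2 to 3 genes at an unadjusted p under 0.05 in limma each time. They gave 0 when ScASC replicate 3 or 4, or IPFSC replicate 1, 2 or 3, was left out. The share of all tested genes at an unadjusted p under 0.05 in these fits is not given here. The cytoskeletal LIM genes gave 2 to 6 calls with a library left out, with 2 without ScASC replicate 2, IPFSC replicate 1 or IPFSC replicate 3. The limb bud genes gave 3 calls each time. The cause of these moves was not tested.

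Median-ratio scaling left the median difference of all tested genes at −0.0041, against −0.0035 as deposited. Depth limits the genes below the filter: LMX1A had least numbers of 3 to 32 reads a library, and ISL1, ISL2 and LHX4 on values in 1 library each. No count model was run, since the deposited values are RPKM and reads were read back, as least whole numbers, for 4 members alone.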
